A study of Homo sapiens with 18 samples.

Results

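Oxidative phosphorylation is the last stage of aerobic ATP production, and its machinery is built from the products of 2 genomes. The genes described here are the subunits of its 5 complexes, chosen by gene symbol alone: 13 protein-coding genes of the mitochondrial genome (symbols MT-ND, MT-CO, MT-ATP and MT-CYB) and 77 nuclear genes, together 90 of the 40266 gene symbols measured. The nuclear genes fall into 37 of complex I (NDUF symbols), 4 of complex II (SDHA to SDHD), 9 of complex III (UQCR symbols and CYC1), 12 of complex IV (COX symbols) and 15 of complex V (ATP5 symbols). The mitochondrial and the nuclear genes are reported apart.

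RNA sequencing was performed on 2 human pancreatic ductal adenocarcinoma cell lines, Panc1 and Panc89, each as parental cells, as Holoclone cells and as Paraclone cells, with 3 libraries in each of the 6 groups. Panc1 stems from a primary tumor and stands for mesenchymal-like cells, and Panc89 stems from a lymph node metastasis and stands for epithelial cells. Holoclone cells represent the cancer stem cell population of a line and Paraclone cells its non-stem population. Each clone variant was grown from a single cell, so that a Holoclone group and a Paraclone group each stand for 1 clone of their line. All groups were kept untreated in the same RPMI medium with fetal calf serum, and the 3 libraries of a group came from different passages. The passages of a group share their clone or cell line, so the p-values measure the spread between passages.

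Values are TPM, a unit that scales each library to a fixed total and corrects for transcript length, so that levels can be set beside each other between genes. Read totals were not part of the table, and the depth behind each value is unknown. The keratin genes KRT8, KRT18 and KRT19 lay between 183 and 2029 TPM in every library, and the mesenchymal gene VIM lay between 2021 and 5044 TPM in Panc1 and between 0.0221 and 0.456 TPM in Panc89 libraries. CDH1, which encodes E-cadherin, was at most 3.51 TPM in Panc1 and at least 73.3 TPM in Panc89. The T cell gene CD3E was at most 0.0361 TPM and the insulin gene INS was listed at 0 in all 18 libraries. Not every marker of other cell types was low. The leukocyte marker CD68 lay between 8.31 and 151 TPM. In Panc89 the endothelial markers PECAM1 and CDH5 reached 64.7 and 5.07 TPM, and the fibroblast marker COL1A1 was at least 9.66 TPM. COL3A1, PDGFRB, DCN, PTPRC, VWF, PRSS1 and CPA1 were at most 1.36 TPM in any library. The Panc89 clone groups spread most for the nuclear subunits. On the high side, Holoclone replicate 1 exceeded the mean of its other replicates for 69 of 75 tested nuclear genes and Paraclone replicate 2 for 70, and on the low side Holoclone replicate 3 did so for 7 and Paraclone replicate 1 for 2. These are called the 2 highest and the 2 lowest Panc89 libraries, and the counts of called nuclear members that rest on the Panc89 clones are also given without either pair, a choice made after seeing the data. All tested genes shifted the same way but less. The median log2 deviation of the nuclear genes was 0.26 and 0.32 in the 2 highest, beside 0.16 and 0.08 over all tested genes. In Holoclone replicate 3 and Paraclone replicate 1 it was -0.16 and -0.31, beside -0.08 and -0.03. In bulk RNA, a lower level in every cell and fewer cells with the transcript cannot be told apart.

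Complexes I, III and IV form the respiratory chain, which passes electrons from NADH to oxygen and pumps protons out of the mitochondrial matrix. Complex II feeds electrons from succinate into the chain without pumping, and complex V, the ATP synthase, uses the returning protons to make ATP. Complexes I, III, IV and V contain subunits of both genomes, whereas complex II is wholly nuclear. The mitochondrial genome is transcribed from both strands into long precursors that are cut into the single mRNAs, while the nuclear subunit genes lie on many chromosomes and each has its own promoter.

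The mitochondrial genes were the far more abundant transcripts. The 13 genes together held between 5.23% and 9.09% of the TPM of a library, and the 77 nuclear genes held between 1.61% and 2.29%, so that the ratio of the first to the second ran from 2.38 to 5.15. The mitochondrial share was 6.57% ± 1.31 (SD, n = 3) in Panc1 parental, 7.17% ± 1.70 in Panc1 Holoclone and 7.79% ± 1.20 in Panc1 Paraclone libraries. In Panc89 it was 6.21% ± 0.888 in parental, 6.28% ± 1.42 in Holoclone and 7.63% ± 0.575 in Paraclone libraries. The ranges of the groups overlapped except that the Panc89 parental libraries ended at 7.18% and the Panc89 Paraclone libraries began at 7.19%. Single libraries moved as a block: in 5 of the 18 libraries all 13 mitochondrial genes exceeded the mean of the other replicates of the group. The nuclear share was steadier, at 2.19% ± 0.0896 in Panc1 parental and 2.02% ± 0.138 in Panc89 parental libraries.

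Among the nuclear genes, the mean over all libraries ran from 13.6 TPM for NDUFV3, an accessory subunit of complex I, to 1018 TPM for ATP5F1B, the catalytic beta subunit of ATP synthase, with a median of 202 TPM. Of the 77 genes, 62 exceeded 100 TPM on average. The tissue-specific isoform genes COX4I2 and COX7A1 were listed at 0 in every library and could not be tested, which left 75 tested nuclear genes of 16093 genes in all. Their partners COX4I1 and COX7A2, the isoforms found in most tissues, averaged 688 and 328 TPM. All 3 genes for the membrane ring subunit c of ATP synthase were expressed: ATP5MC2 averaged 752 TPM, ATP5MC1 373 TPM and ATP5MC3 197 TPM, although all 3 encode the same mature protein.

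The first question was how the lines differ in these genes. Panc89 was compared with Panc1 in 3 pairs of groups that share no library: parental with parental, Holoclone with Holoclone and Paraclone with Paraclone. The nuclear subunits did not move together. In the parental pair, 18 of 75 tested nuclear genes were higher in Panc89 and 29 were lower, or 24.0% and 38.7%, beside 27.5% and 38.5% of all 16093 tested genes. In the Holoclone pair 18 were higher and 27 lower, beside 29.3% and 36.4% of all genes, and in the Paraclone pair 16 were higher and 24 lower, beside 30.2% and 30.4%. These shares lay within a few points of the background or below it. The median log2 difference of the nuclear genes was -0.14, -0.18 and -0.12 in the 3 pairs, and that of all tested genes was -0.18, -0.11 and -0.003. The split between higher and lower depended on how libraries were scaled: with upper quartile scaling it was 25 and 26, 26 and 24, and 16 and 27 in the 3 pairs, and with median-of-ratios scaling it was 27 and 21, 29 and 21, and 22 and 24. The shares of all genes were 31.7% and 33.9%, 32.3% and 33.3%, and 30.1% and 31.9% under the first and 33.8% and 31.5%, 33.9% and 31.1%, and 32.4% and 29.8% under the second. The Paraclone pair also turned with the choice of libraries. There, 14 nuclear genes were higher and 38 lower without the 2 highest Panc89 libraries, or 18.7% and 50.7% beside 30.4% and 33.7% of all genes, and without the 2 lowest 21 were higher and 17 lower, or 28.0% and 22.7% beside 29.0% and 28.1%. In the Holoclone pair the counts were 18 and 34 of 75 without the 2 highest, beside 28.8% and 39.8% of all genes. Without the 2 lowest they were 21 and 24 of 75, beside 28.8% and 33.5%.

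Of the 75 nuclear genes, 12 were higher in Panc89 in all 3 pairs and 15 were lower in all 3, or 16.0% and 20.0%, slightly below the 17.8% and 21.6% of all tested genes. A further 4 were called in both directions, beside 5.1% of all genes, and 16 were called in no pair. Complex I held genes on both sides: NDUFA7, NDUFA8, NDUFA9, NDUFS7 and NDUFV2 were higher in all 3 pairs, and NDUFA1, NDUFA3, NDUFA6, NDUFB2, NDUFB8, NDUFB11, NDUFS3 and NDUFS5 were lower. Complex IV was split in the same manner, with COX4I1 and COX6A1 higher and COX5A, COX6B1 and COX7A2 lower. Complex III had CYC1 and UQCRC1 higher and UQCRFS1 and UQCRH lower, and complex V had ATP5F1B, ATP5F1D and ATP5MC2 higher and ATP5MG lower. In complex II, SDHD was lower. Of the 12 higher genes, 10 kept all 3 calls under both other scalings and whichever library was left out, the exceptions being NDUFA8 and ATP5F1B, and of the 15 lower genes 10 did, the exceptions being NDUFA6, NDUFB11, NDUFS3, SDHD and UQCRH. In all 3 pairs, 11 of the 12 and 14 of the 15 passed without the 2 highest Panc89 libraries, and 12 and 13 without the 2 lowest.

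**Figure D1:**
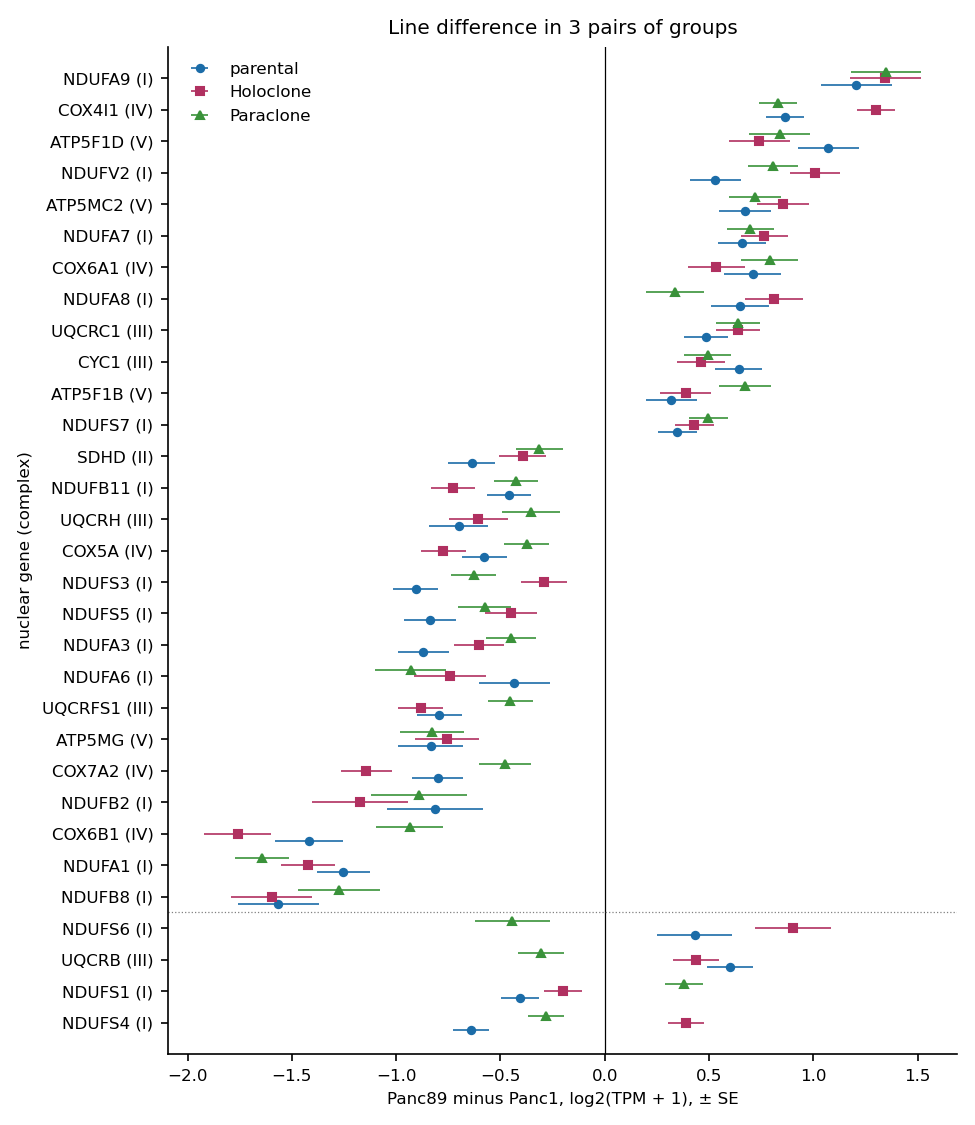
Log2 difference between Panc89 and Panc1 (horizontal axis, on the log2(TPM + 1) scale) in the parental, Holoclone and Paraclone pairs for the 27 nuclear genes called one way in all 3 pairs and, under the dotted line, the 4 called in both directions. Points are differences of group means of 3 libraries and bars are SE; NDUFA9 has the highest difference, up to 1.35, and COX6B1 the lowest, down to -1.76.

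NDUFA9, a subunit of complex I that lies beside its ubiquinone-binding site, had the highest difference of any member in all 3 pairs. The gene lies at chr12:4649095-4694317 (GRCh38). In Panc1 cells NDUFA9 stood at 77.9, 77.8 and 81.9 TPM in the parental, 75.7, 68.5 and 79.1 TPM in the Holoclone and 67.3, 54.4 and 42.7 TPM in the Paraclone libraries. In Panc89 cells it stood at 183, 186 and 183 TPM in the parental, 216, 173 and 184 TPM in the Holoclone and 111, 183 and 132 TPM in the Paraclone libraries. The ranges of the lines did not overlap, with the lowest Panc89 library, a Paraclone, above the highest Panc1 library. The log2 differences were 1.21 ± 0.17, 1.35 ± 0.17 and 1.35 ± 0.17 (SE) in the parental, Holoclone and Paraclone pairs (limma adjusted p = 1.2e-05, 3.8e-06 and 4.3e-06).

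COX4I1, a complex IV subunit with a regulatory site that binds ATP, lies at chr16:85798633-85807068. In Panc1 cells it stood at 456, 464 and 428 TPM in the parental, 503, 431 and 472 TPM in the Holoclone and 453, 463 and 416 TPM in the Paraclone libraries. In Panc89 cells COX4I1 reached 795, 842 and 815 TPM in the parental, 1227, 1131 and 1106 TPM in the Holoclone and 723, 868 and 786 TPM in the Paraclone libraries. Every Panc89 library exceeded every Panc1 library, and the Panc89 Holoclone was the highest group. The differences were 0.86 ± 0.09, 1.30 ± 0.09 and 0.83 ± 0.09 (SE) in the parental, Holoclone and Paraclone pairs (limma adjusted p = 5.9e-07, 4.7e-09 and 1.0e-06).

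NDUFB8, an accessory subunit of the membrane arm of complex I that is often blotted as a sign of an assembled complex, lies at chr10:100523740-100530000. It stood at 372, 362 and 338 TPM in the parental, 397, 334 and 399 TPM in the Holoclone and 332, 305 and 253 TPM in the Paraclone libraries of Panc1 and at 103, 148 and 113 TPM in the parental, 154, 119 and 102 TPM in the Holoclone and 98.0, 167 and 109 TPM in the Paraclone libraries of Panc89. All Panc89 libraries lay below all Panc1 libraries. The differences were -1.56 ± 0.20, -1.60 ± 0.20 and -1.27 ± 0.20 (SE) in the parental, Holoclone and Paraclone pairs (limma adjusted p = 3.6e-06, 2.9e-06 and 3.6e-05).

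COX6B1 joins the monomers of complex IV on the side of the intermembrane space, and its gene lies at chr19:35648323-35658782. Its values were 784, 804 and 756 TPM in the parental, 804, 691 and 728 TPM in the Holoclone and 666, 650.2 and 601 TPM in the Paraclone libraries of Panc1, and 269.7, 325 and 282 TPM in the parental, 310.1, 197 and 169 TPM in the Holoclone and 314, 339.9 and 346 TPM in the Paraclone libraries of Panc89. Again the lines did not overlap, and the Panc89 Holoclone replicates 2 and 3 were the lowest of all 18 libraries. The differences were -1.42 ± 0.16, -1.76 ± 0.16 and -0.94 ± 0.16 (SE) in the parental, Holoclone and Paraclone pairs (limma adjusted p = 1.3e-06, 1.1e-07 and 1.1e-04).

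NDUFA1, a small membrane subunit needed for complex I assembly, lies on the X chromosome at chrX:119871832-119876662. It stood at 584, 678 and 609 TPM in the parental, 606, 520.4 and 537 TPM in the Holoclone and 868, 940.1 and 889 TPM in the Paraclone libraries of Panc1 and at 241, 282 and 259.9 TPM in the parental, 255, 191 and 179.7 TPM in the Holoclone and 254, 321 and 290.5 TPM in the Paraclone libraries of Panc89. The highest Panc89 library lay below the lowest Panc1 library. The differences were -1.25 ± 0.13, -1.42 ± 0.13 and -1.64 ± 0.13 (SE) in the parental, Holoclone and Paraclone pairs (limma adjusted p = 4.0e-07, 9.0e-08 and 1.8e-08). Within both lines the Paraclone mean was above the Holoclone mean, as described with the clones. The Panc89 clone groups overlapped slightly, with a Holoclone library at 255 TPM and a Paraclone library at 254 TPM.

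**Figure D2:**
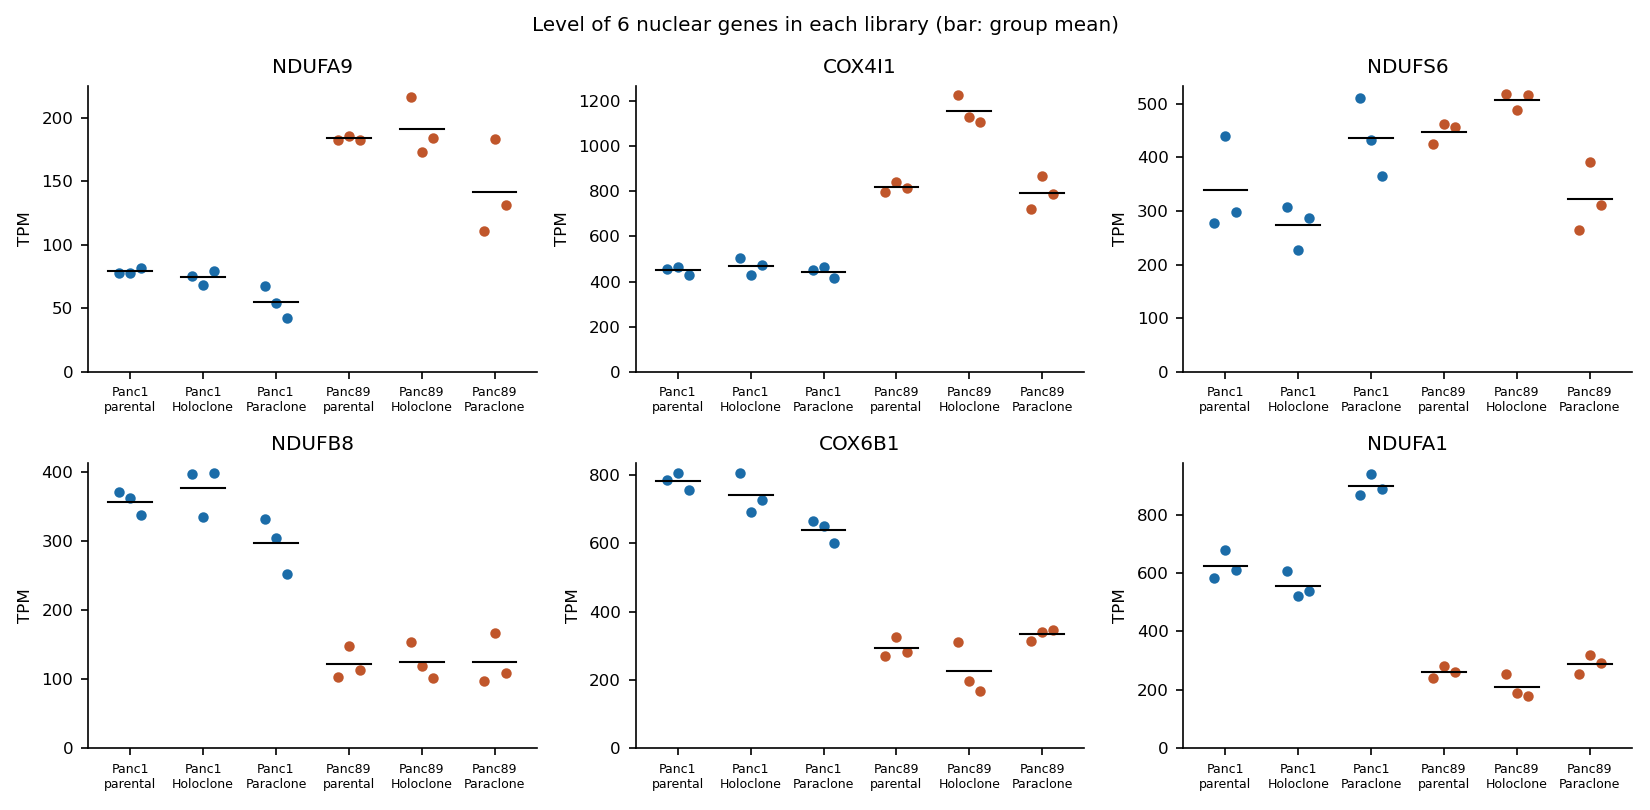
TPM of NDUFA9, COX4I1, NDUFS6, NDUFB8, COX6B1 and NDUFA1 in each of the 18 libraries (points, vertical axis from 0), by group, with the group mean as a bar. The lines separate without overlap for NDUFA9, COX4I1, NDUFB8, COX6B1 and NDUFA1, whereas NDUFS6 overlaps between the lines and turns with the clone variant.

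The other members with the highest or lowest differences of a pair were spread over the complexes. ATP5F1D, the delta subunit of the ATP synthase stalk, was higher by 1.07 ± 0.14, 0.74 ± 0.14 and 0.84 ± 0.14 (SE) in the parental, Holoclone and Paraclone pairs (limma adjusted p = 8.3e-06, 3.1e-04 and 1.2e-04). NDUFV2, an iron-sulfur subunit of the NADH-oxidizing module, was higher by 0.53 ± 0.12, 1.01 ± 0.12 and 0.81 ± 0.12 (SE) in the parental, Holoclone and Paraclone pairs (limma adjusted p = 0.0012, 2.5e-06 and 3.0e-05). COX6C, a small membrane subunit of complex IV, differed by -0.18, -0.43 and -1.10 and was called lower in the Holoclone and Paraclone pairs, the Holoclone call being lost under both other scalings and when any of 4 single libraries was left out. NDUFB6, a membrane subunit of complex I, differed by -0.64, -1.54 and -0.45 and was called lower in the parental and Holoclone pairs, although the parental call was lost under both other scalings and when any of 4 single libraries was left out. ATP5F1C, the gamma subunit that forms the rotating shaft of ATP synthase, passed in the Paraclone pair, where it was higher by 0.97 ± 0.14 (SE, limma adjusted p = 1.7e-05), with 0.21 ± 0.14 (SE) in the parental pair.

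The list of core subunits numbers 18. It holds genes for subunits with redox centers or catalytic sites, and also others without them, such as UQCRC1 and UQCRC2. In the parental pair 6 were higher and 6 lower, or 33.3% each beside 27.5% and 38.5% of all tested genes. In the Holoclone pair 5 were higher and 5 lower, or 27.8% each beside 29.3% and 36.4%, and in the Paraclone pair 8 and 6, or 44.4% and 33.3% beside 30.2% and 30.4%. In the matrix arm of complex I, NDUFS7 was higher by 0.35, 0.43 and 0.50 in the 3 pairs and NDUFS3 was lower, at -0.91, -0.29 and -0.63. NDUFS1, which carries several iron-sulfur clusters, was lower in the parental pair (-0.41) and higher in the Paraclone pair (0.38), the former call being lost under median-of-ratios scaling. NDUFV1, which binds NADH and FMN, was called lower in the parental pair (-0.43 ± 0.09, SE, limma adjusted p = 3.9e-04), and NDUFS8 passed in no pair, with -0.19, 0.16 and 0.08. In complex II, the flavoprotein gene SDHA was higher in the parental pair (0.64 ± 0.20, SE, limma adjusted p = 0.0096), the iron-sulfur gene SDHB was lower in the parental and Paraclone pairs (-0.55 and -0.43), and the membrane anchor genes SDHC and SDHD differed by -0.17, -0.42 and 0.18 and by -0.64, -0.39 and -0.32. SDHC and SDHD include calls that depended on single libraries.

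In complex III, the cytochrome c1 gene CYC1 was higher by 0.64, 0.46 and 0.49 and UQCRC1, a core subunit of the matrix side, by 0.48, 0.64 and 0.64. Its partner UQCRC2 differed by -0.19, 0.29 and -0.38 and was called lower in the Paraclone pair, a call lost when any of 4 single libraries was left out. The Rieske iron-sulfur gene UQCRFS1 was lower, at -0.79, -0.88 and -0.45. In ATP synthase, the catalytic ATP5F1B was higher by 0.32, 0.39 and 0.67, whereas its non-catalytic partner ATP5F1A was called lower in the Holoclone and Paraclone pairs, at -0.47 and -0.62, the Holoclone call being lost under median-of-ratios scaling and without Panc89 Holoclone replicate 3. The genes for subunit c diverged: ATP5MC2 was higher by 0.67, 0.86 and 0.72, ATP5MC1 was lower in the parental and Holoclone pairs (-0.93 and -1.47, the first lost without Panc89 parental replicate 1), and ATP5MC3 was lower in the parental pair (-1.02). COX7A2, a small membrane subunit of complex IV, was lower, at -0.80, -1.14 and -0.48. NDUFA4, which carries a complex I symbol but is known as a complex IV subunit, was called in no pair, with -0.12, 0.13 and 0.34.

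Some values could be shared with near-identical copies. The processed copy UQCRFS1P1 averaged 33.3 TPM beside UQCRFS1, and copies summed to 66.1% of that gene on average and to as much as 81.2% in a library. SDHAP1 averaged 26.5 TPM, and the copies of SDHA summed to 36.5% of it and to as much as 59.4% in a library. Of the 50 nuclear members with another entry named after them, these were the only ones above 10%. Those entries also include antisense, divergent and read-through transcripts such as NDUFB2-AS1, NDUFA6-DT and NDUFC2-KCTD14, so fewer than 50 members have a true copy. The values of UQCRFS1 and SDHA are uncertain to that extent.

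Genes that lie next to each other on a chromosome were compared as well, a comparison that was chosen after the values had been seen. For each nuclear gene, the median log2 difference of the 20 tested genes nearest to it on the same chromosome was set beside its own. Of the called nuclear genes, 36 of 47 in the parental pair, 32 of 45 in the Holoclone pair and 35 of 40 in the Paraclone pair had the sign of this neighbor median. No such share of all called genes is given beside these counts, so they cannot be read as particular to the members. Across the 75 genes, Spearman's rho between a gene's difference and its neighbor median was 0.58, 0.51 and 0.64 in the 3 pairs, beside 0.38, 0.37 and 0.35 across all 15839 tested genes with a position. All points of a pair share the same 6 libraries and neighboring genes share neighbors, so these are descriptions. Around NDUFA1 the neighbor medians were -1.32, -1.14 and -1.34, close to its own differences of -1.25, -1.42 and -1.64. Around COX6B1 they were -0.99, -1.09 and -0.83, around NDUFB8 -1.17, -1.01 and -0.34, around COX4I1 0.35, 0.76 and 0.73 and around NDUFA9 0.29, 0.68 and 0.45. The genes around ATP5MC1 differed far more than ATP5MC1 itself, with -3.54, -3.41 and -3.49. What sets the neighbors apart between the lines was not measured in these data, and its part in the differences of the members was not tested.

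**Figure D3:**
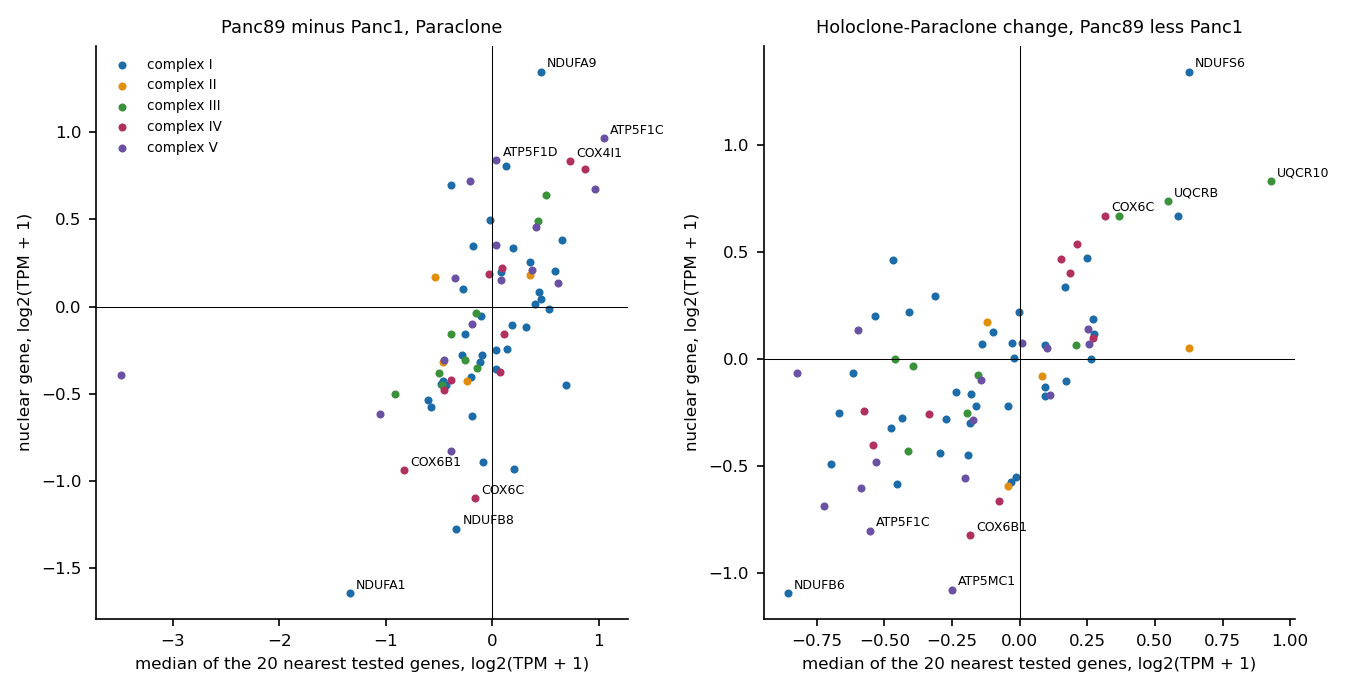
Log2 difference of each of the 75 tested nuclear genes (vertical axis) against the median log2 difference of the 20 nearest tested genes on its chromosome (horizontal axis), for Panc89 against Panc1 Paraclone cells and for the line difference of the Holoclone against Paraclone change. Points in the upper right and lower left share the sign of their neighbors, as 35 of 40 called genes did in the first panel and 18 of 19 in the second. The same share over all called genes is not given.

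The second question was whether Holoclone and Paraclone cells differ in these genes within a line. In Panc1, 16 of 75 nuclear genes were higher and 6 lower in Holoclone than in Paraclone cells, or 21.3% and 8.0%, beside 27.4% and 9.97% of all tested genes. In Panc89, 13 were higher and 11 lower, or 17.3% and 14.7%, beside 22.4% and 13.3%. The median log2 difference was 0.10 in Panc1 and 0.004 in Panc89, below the medians of all genes of 0.19 and 0.09. The direction in Panc1 turned with the scaling: with upper quartile scaling 4 nuclear genes were higher and 19 lower, and with median-of-ratios scaling 3 and 21, with medians of -0.14 and -0.17, while the median of all genes moved to 0.01 and 0. These are 5.33% and 25.3%, and 4.0% and 28.0%, of the nuclear genes, beside 16.4% and 15.6%, and 15.2% and 16.6%, of all genes, so that under both other scalings fewer members than genes at large were higher and more were lower. In Panc89 the split became 11 and 20, and 11 and 23, or 14.7% and 26.7%, and 14.7% and 30.7%, beside 19.1% and 17.3%, and 18.1% and 18.6%, of all genes. Whether the nuclear subunits as a group rose or fell in the clones therefore depended on the scaling. Relative to all genes, their median was lower in Panc1 under each of the 3 scalings, and in Panc89 with the values as deposited. With those values the share called lower in Panc1, 8.0%, did not exceed the 9.97% of all genes.

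A few subunits were called the same way in both lines. In both, NDUFA9, NDUFB9, NDUFS3, NDUFV1, SDHD, CYC1 and ATP5MG were higher in Holoclone cells, 7 of 75 genes beside 7.54% of all tested genes. NDUFA1 and COX7C were lower in both, 2 of 75 genes beside 2.09%. Of these 9, only NDUFB9, SDHD, NDUFA1 and COX7C passed in both lines under both other scalings. All 9 passed in both lines without the 2 highest Panc89 libraries, and NDUFB9, NDUFS3, NDUFV1, SDHD and NDUFA1 did without the 2 lowest.

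NDUFB9, an accessory subunit of the membrane arm of complex I, stood at 540.2, 504 and 571 TPM in Panc1 Holoclone and 388, 299 and 273 TPM in Panc1 Paraclone libraries. In Panc89 it stood at 368, 327 and 341 TPM in Holoclone and 190.1, 261 and 208 TPM in Paraclone libraries. No Paraclone library reached the Holoclone range of its line. The differences were 0.76 ± 0.13 (SE, limma adjusted p = 3.2e-04) in Panc1 and 0.66 ± 0.13 (SE, limma adjusted p = 0.0011) in Panc89.

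SDHD, a membrane anchor of complex II, stood at 225, 217 and 213 TPM in Panc1 Holoclone against 148, 138 and 141 TPM in Panc1 Paraclone libraries, and at 203, 155 and 145 TPM against 108, 126 and 109 TPM in Panc89. The groups did not overlap in either line. The differences were 0.62 ± 0.11 (SE, limma adjusted p = 5.0e-04) and 0.54 ± 0.11 (SE, limma adjusted p = 0.0015). Of the other complex II genes, SDHA, SDHB and SDHC passed in neither line, with -0.49, -0.18 and 0.23 in Panc1 and -0.44, -0.01 and -0.36 in Panc89.

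NDUFA1, whose values by library are given above, went the other way, with log2 differences of -0.70 ± 0.13 (SE, limma adjusted p = 5.3e-04) in Panc1 and -0.48 ± 0.13 (SE, limma adjusted p = 0.0087) in Panc89. Its groups did not overlap in Panc1 and overlapped slightly in Panc89. COX7C, a small membrane subunit of complex IV, was lower, at -0.66 ± 0.10 (SE, limma adjusted p = 6.4e-05) and -0.26 ± 0.10 (SE, limma adjusted p = 0.046), the Panc89 call being lost when any of 4 single libraries was left out.

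**Figure D4:**
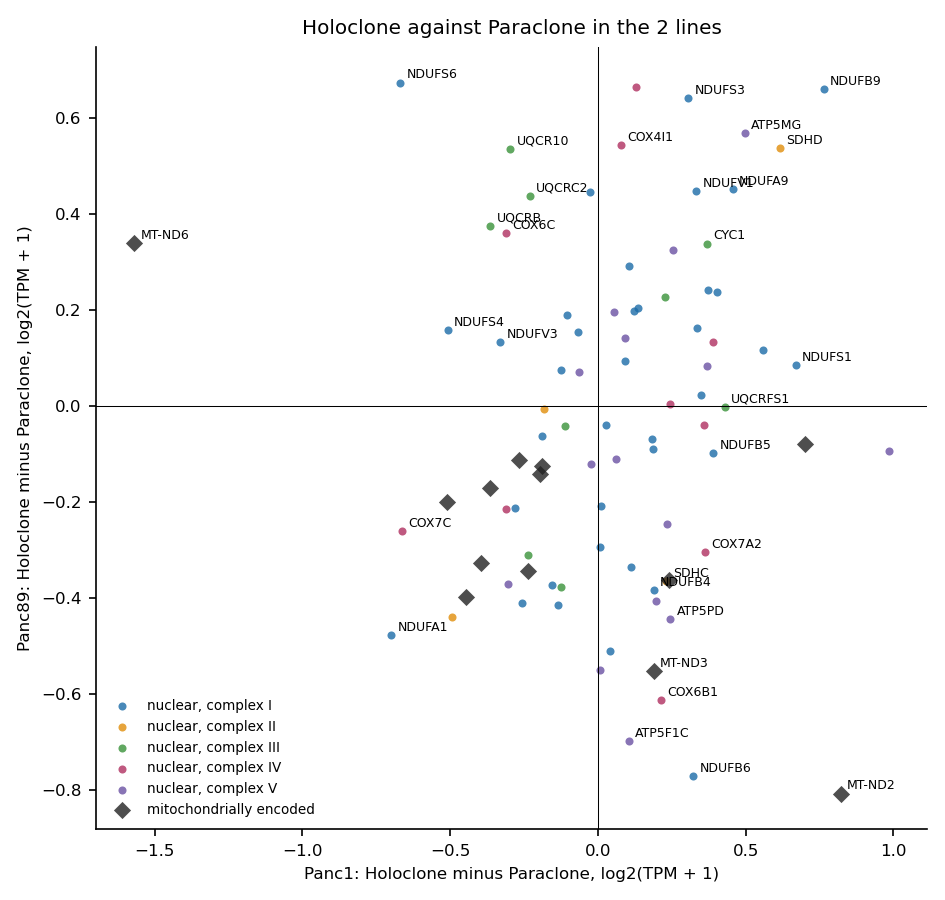
Log2 difference of Holoclone against Paraclone cells in Panc1 (horizontal axis) and in Panc89 (vertical axis) for the 75 tested nuclear genes, colored by complex, and the 13 mitochondrial genes (diamonds). NDUFA1 lies in the lower left, NDUFB9 and SDHD in the upper right, and NDUFS6, MT-ND2 and MT-ND6 far from the diagonal.

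In Panc1 the highest difference was that of ATP5MC1, which stood at 644, 673 and 643 TPM in Holoclone and 419.8, 325 and 262 TPM in Paraclone libraries. The groups did not overlap, though the Paraclone libraries spread widely. The difference was 0.99 ± 0.31 (SE, limma adjusted p = 0.019), and the call was lost under both other scalings and when Paraclone replicate 2 or 3 was left out. NDUFS1 was higher by 0.67 ± 0.09 (SE, limma adjusted p = 3.7e-05) and kept its call throughout. Of the 18 core genes 7 were higher in Panc1 Holoclone cells and none lower, or 38.9% and 0%, beside 27.4% and 9.97% of all genes. Beside NDUFS1 and SDHD these were NDUFS3 (0.31), NDUFV1 (0.33), UQCRFS1 (0.43), ATP5F1B (0.37) and CYC1 (0.37). These 5 lost their calls under both other scalings. COX7A2, with 0.36, lost its call in the same way. COX4I1 did not pass in Panc1, with 0.08 ± 0.09 (SE).

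In Panc89 the highest differences were those of NDUFS6, COX8A and NDUFB9. COX8A, a small membrane subunit of complex IV, stood at 1082, 893 and 901 TPM in Holoclone and 465, 868 and 538 TPM in Paraclone libraries. Paraclone replicate 2 came close to the Holoclone range. The difference was 0.67 ± 0.18 (SE, limma adjusted p = 0.01), and leaving out Paraclone replicate 1 ended the call. Without the 2 highest Panc89 libraries it was 0.84, and without the 2 lowest 0.52, which did not pass. COX4I1 was higher in Panc89 Holoclone cells by 0.55 ± 0.09 (SE, limma adjusted p = 2.5e-04). Of the core genes, 5 were higher (NDUFS3 0.64, SDHD 0.54, NDUFV1 0.45, UQCRC2 0.44 and CYC1 0.34) and ATP5F1C was lower, or 27.8% and 5.56% of the 18, beside 22.4% and 13.3% of all genes. The count of nuclear calls in Panc89 depended on the libraries. Without the 2 highest, 18 were higher and 18 lower, or 24.0% each beside 24.4% and 16.8% of all genes, and without the 2 lowest 6 were higher and 7 lower, or 8.0% and 9.33% beside 16.2% and 8.75%, in place of 13 and 11.

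The third question was whether the Holoclone against Paraclone change differs between the lines, tested as the Panc89 change less the Panc1 change. This test shares its libraries with both clone comparisons. The change differed for 19 nuclear genes: 9 had the higher change in Panc89 and 10 the lower, or 12.0% and 13.3%, beside 14.8% and 20.4% of all tested genes. With upper quartile scaling the split was 12 and 6 of the 75 nuclear genes, beside 17.7% and 16.7% of all genes. With median-of-ratios scaling it was 12 and 7 of the 75, beside 17.9% and 16.8%. NDUFS6 and UQCRB were called lower in Panc1 and higher in Panc89 Holoclone cells, 2 of 75 nuclear genes called in opposite directions, beside 4.92% of all tested genes.

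NDUFS6, a zinc-binding subunit added late in complex I assembly, lies at chr5:1801407-1816048. In Panc1 it stood at 307, 227 and 287 TPM in Holoclone and 511, 433 and 365 TPM in Paraclone libraries, and in Panc89 at 519, 488 and 517 TPM and 264, 391 and 311 TPM. The groups did not overlap in either line and their order was opposite. The differences were -0.67 ± 0.18 (SE, limma adjusted p = 0.0084) in Panc1, 0.67 ± 0.18 (SE, limma adjusted p = 0.0084) in Panc89 and 1.34 ± 0.26 (SE, limma adjusted p = 7.6e-04) between the lines. The line differences of NDUFS6 turned accordingly, with 0.43, 0.90 and -0.44 in the parental, Holoclone and Paraclone pairs, of which the parental call was lost when any of 5 single libraries was left out and the Paraclone call when any of 4 was. Without the 2 highest Panc89 libraries the Panc89 change was 0.81 and the difference between the lines 1.48, and without the 2 lowest they were 0.53, which did not pass, and 1.20, which did.

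UQCRB, which binds ubiquinone in complex III, stood at 217, 197 and 204 TPM and 261, 251 and 285 TPM in Panc1 Holoclone and Paraclone libraries and at 320.2, 263 and 257 TPM and 184, 245 and 219 TPM in Panc89. The groups overlapped in neither line. Its changes were -0.36 and 0.38, and the difference between them was 0.74 ± 0.16 (SE, limma adjusted p = 0.0018). The Panc1 call was lost without Panc1 Holoclone replicate 2 or Panc1 Paraclone replicate 3, and the Panc89 call without Panc89 Holoclone replicate 1 or Panc89 Paraclone replicate 1, while the call of the difference held. Without the 2 highest Panc89 libraries its Panc89 change was 0.37 and the difference 0.74, and without the 2 lowest they were 0.33, which did not pass, and 0.69, which did. UQCRC2 had a difference of 0.67 ± 0.19 (SE, limma adjusted p = 0.012) and UQCR10, a small membrane subunit of complex III, one of 0.83 ± 0.29 (SE, limma adjusted p = 0.037), which was lost when any of 8 single libraries was left out. NDUFS4, an accessory subunit of the matrix arm of complex I, was lower in Panc1 Holoclone cells and its change differed by 0.67 ± 0.12 (SE, limma adjusted p = 5.5e-04).

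On the other side, ATP5F1C stood at 155, 177 and 179 TPM in Panc1 Holoclone and 183, 151 and 142 TPM in Panc1 Paraclone libraries, and at 224, 178 and 172 TPM and 255, 367 and 315 TPM in Panc89. The Panc1 groups overlapped and the Panc89 groups did not, all Panc89 Paraclone libraries being higher. The Panc89 change was -0.70 ± 0.14 (SE, limma adjusted p = 9.7e-04) and the difference between the lines -0.80 ± 0.19 (SE, limma adjusted p = 0.0046). COX6B1, with a Panc89 change of -0.61 ± 0.16 (SE, limma adjusted p = 0.0077), had a difference of -0.82 ± 0.23 (SE, limma adjusted p = 0.011). NDUFB6, with a Panc89 change of -0.77 ± 0.24 (SE, limma adjusted p = 0.019), had one of -1.09 ± 0.34 (SE, limma adjusted p = 0.019), and both of its calls rested on single libraries: the first was lost without Panc89 Holoclone replicate 2 or 3 or Panc89 Paraclone replicate 2, and the second without Panc1 Paraclone replicate 3 or Panc89 Holoclone replicate 3. NDUFS1, NDUFS4, NDUFS6, UQCRB, UQCRC2, COX4I1, COX6B1, COX7A2, ATP5F1C and ATP5PD kept the call of the difference under both scalings and without each of the 12 libraries in turn. Without the 2 highest Panc89 libraries, 9 nuclear genes had the higher and 13 the lower change in Panc89, beside 16.8% and 23.7% of all genes, with -1.06 for COX6B1, -1.16 for NDUFB6 and -0.80 for ATP5F1C. Without the 2 lowest 7 had the higher and 12 the lower change, beside 13.1% and 16.4%, with -0.68, -1.01 and -0.87 for these genes, while the Panc89 changes of COX6B1 and NDUFB6, at -0.47 and -0.69, did not pass.

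The sign of the neighboring genes was again shared by most called members, 19 of 22 in Panc1, 18 of 24 in Panc89 and 18 of 19 for the difference between the lines. Here too the share of all called genes is not given, so the counts have no background. Spearman's rho over the 75 genes was 0.45, 0.44 and 0.60, beside 0.26, 0.26 and 0.29 over all 15839 genes. The neighbor median of the line difference was 0.93 around UQCR10, 0.63 around NDUFS6, -0.18 around COX6B1 and -0.86 around NDUFB6. All libraries were used for the neighbor values. The part of the neighborhood in these differences was not tested.

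The place of the parental cells relative to their clones was compared as well. In Panc1, the parental mean exceeded both clone means for 40 of 75 nuclear genes, lay below both for 7 and lay between them for 28, or 53.3%, 9.33% and 37.3%, beside 31.9%, 17.3% and 50.8% of all tested genes. In Panc89 these counts were 25, 9 and 41, or 33.3%, 12.0% and 54.7%, beside 23.8%, 29.4% and 46.7%. The count above both in Panc1 fell to 30, or 40.0%, with upper quartile scaling, beside 29.4% of all genes. With median-of-ratios scaling it fell to 25, or 33.3%, beside 27.0%. For the mitochondrial genes, in each line the parental mean lay below both clones for 8 of 13 genes and above both for 1, with 4 between. In Panc89 the 8 became 3 and 4 under the other scalings, and in Panc1 the count was 8 under each.

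The 13 mitochondrial genes are read from a circular genome of 16569 bases. All but MT-ND6 are coded on the same strand. On average MT-CO2, the complex IV subunit that receives electrons from cytochrome c, was the highest at 10032 TPM, and MT-ND6, the complex I subunit coded on the other strand, was the lowest at 105 TPM. The MT-ND6 transcript is known to lack the long poly(A) tail of the others, and the libraries were made from polyadenylated RNA. In the line pairs, 0 mitochondrial genes were higher and 4 lower in the parental pair (MT-ND3, MT-ND4, MT-ND4L and MT-ND6), 0 and 3 in the Holoclone pair (MT-ND1, MT-ND3 and MT-ND4) and 1 and 3 in the Paraclone pair (MT-ND2 higher and MT-ND4, MT-ND5 and MT-ND6 lower). These are to be read beside the same shares of all genes as above, 27.5% and 38.5%, 29.3% and 36.4%, and 30.2% and 30.4%. At an unadjusted p under 0.05 the limma counts were 0 and 4, 1 and 5, and 1 and 3. Under median-of-ratios scaling none of the 13 passed in the parental pair, at either an adjusted or an unadjusted p. The median difference of the 13 genes was -0.10, -0.31 and -0.01.

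**Figure D5:**
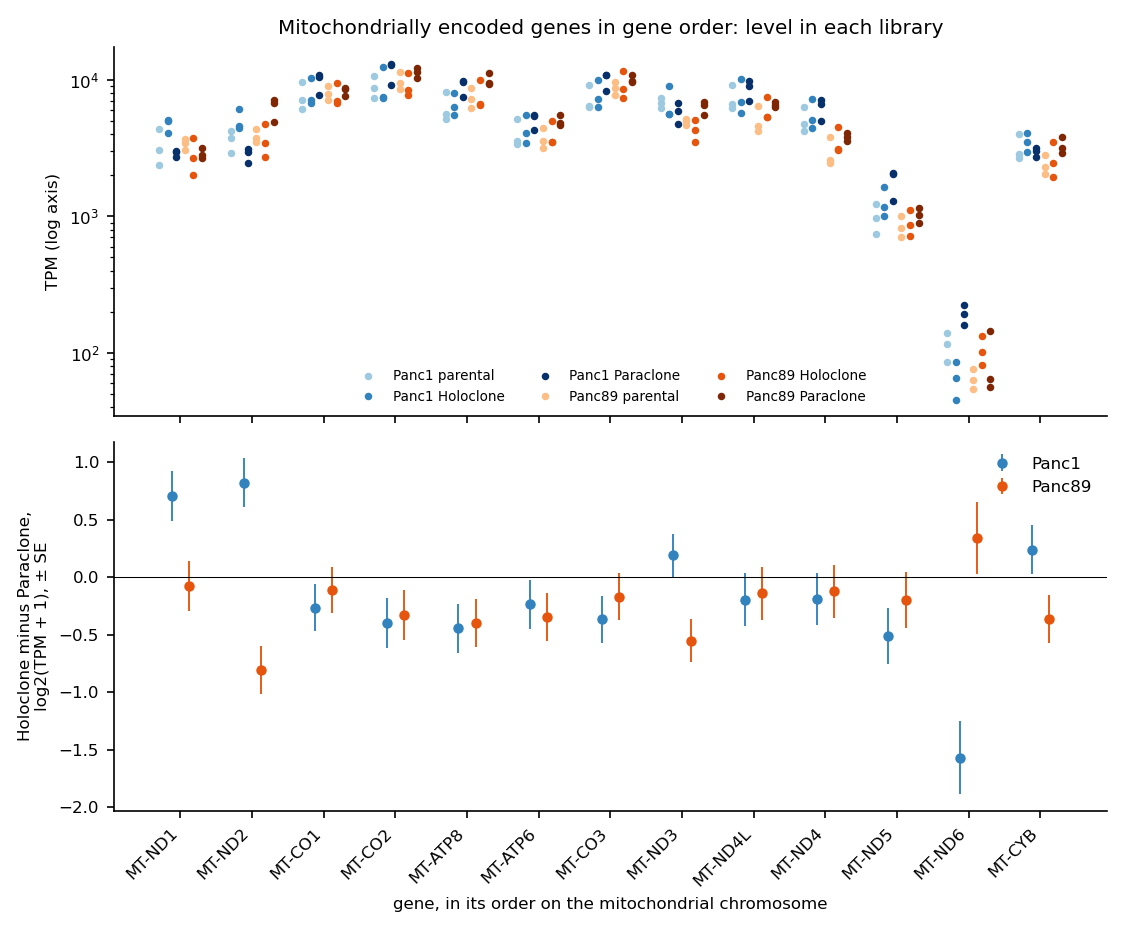
TPM of the 13 mitochondrial genes in each of the 18 libraries on a log axis, in the order of the genes along the genome, and their log2 difference of Holoclone against Paraclone cells in each line, with SE. MT-ND6 lies far below the other genes. MT-ND2 was called in both lines with opposite sign and MT-ND6 was called only in Panc1. Other genes, such as MT-CYB, also differ in sign between the lines but were not called in both.

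MT-ND4, a membrane subunit of complex I, was the only mitochondrial gene lower in Panc89 in all 3 pairs. It stood at 4770.1, 4248 and 6389 TPM in the parental, 5053, 7259.5 and 4415 TPM in the Holoclone and 5033, 7161 and 6637 TPM in the Paraclone libraries of Panc1. In Panc89 MT-ND4 stood at 2579, 3826 and 2460.3 TPM in the parental, 3109.6, 4497 and 3056 TPM in the Holoclone and 4061, 3804 and 3578 TPM in the Paraclone libraries. The parental groups did not overlap, the Holoclone groups overlapped, and the Paraclone groups did not. The differences were -0.80 ± 0.23, -0.64 ± 0.23 and -0.70 ± 0.23 (SE) in the parental, Holoclone and Paraclone pairs (limma adjusted p = 0.0056, 0.021 and 0.014). The parental call was lost under median-of-ratios scaling, the Holoclone call under both other scalings, when any of 3 single libraries was left out and without either the 2 highest or the 2 lowest Panc89 libraries, and the Paraclone call without Panc1 Paraclone replicate 2.

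MT-ND6 had the greatest clone difference of any member. In Panc1 it stood at 85.0, 115 and 138 TPM in the parental, 65.5, 85.9 and 45.2 TPM in the Holoclone and 161, 222 and 192 TPM in the Paraclone libraries, and in Panc89 at 62.9, 75.2 and 54.4 TPM in the parental, 132, 101 and 81.0 TPM in the Holoclone and 64.5, 144 and 56.3 TPM in the Paraclone libraries. In Panc1 every Paraclone library exceeded every Holoclone library, and in Panc89 the groups overlapped, with Paraclone replicate 2 far above its replicates. The change was -1.57 ± 0.32 (SE, limma adjusted p = 0.0011) in Panc1 and 0.34 ± 0.32 (SE, limma adjusted p = 0.44) in Panc89, and the difference between the lines was 1.91 ± 0.45 (SE, limma adjusted p = 0.0036). Both the Panc1 call and the call of the difference held under both other scalings and without each library in turn, and the difference was 2.14 without the 2 highest and 1.92 without the 2 lowest Panc89 libraries. In the line pairs MT-ND6 was lower in the parental and Paraclone pairs, at -0.79 ± 0.32 (SE, limma adjusted p = 0.038) and -1.22 ± 0.32 (SE, limma adjusted p = 0.0033), and the Holoclone pair gave 0.69 ± 0.32 (SE, limma adjusted p = 0.068). The parental call was lost under both other scalings.

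MT-ND2, a membrane subunit of complex I, moved in opposite directions in the clones of the lines. It stood at 4620.3, 6097 and 4428 TPM in Panc1 Holoclone and 2462, 2949.9 and 3109.8 TPM in Panc1 Paraclone libraries, and at 2719, 4781 and 3468 TPM and 7144, 4955 and 6827 TPM in Panc89. In each line the groups did not overlap, and the Panc89 Paraclone was the highest of the 6 groups. The change was 0.82 ± 0.21 (SE, limma adjusted p = 0.0058) in Panc1 and -0.81 ± 0.21 (SE, limma adjusted p = 0.0069) in Panc89. The difference between the lines was -1.63 ± 0.30 (SE, limma adjusted p = 5.4e-04), which held under both other scalings and without each library in turn, whereas the Panc1 call was lost under both other scalings and the Panc89 call without the 2 lowest Panc89 libraries (-0.69). The Paraclone pair differed by 1.14 ± 0.21 (SE, limma adjusted p = 2.1e-04).

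MT-ND1 stood at 5119, 5031 and 4060.1 TPM in Panc1 Holoclone and 2708, 3013 and 2982 TPM in Panc1 Paraclone libraries. The groups did not overlap and the difference was 0.70 ± 0.22 (SE, limma adjusted p = 0.019), a call that was lost under both other scalings and when any of 3 single libraries was left out. In all, 2 mitochondrial genes were higher and 1 lower in Panc1 Holoclone than Paraclone cells, and 0 were higher and 2 lower in Panc89 (MT-ND2 and MT-ND3), beside 27.4% and 9.97%, and 22.4% and 13.3%, of all genes. With upper quartile and with median-of-ratios scaling, 0 were higher and 3 lower in Panc1. MT-ND3 had -0.55 ± 0.19 (SE, limma adjusted p = 0.031) in Panc89 and -0.74 ± 0.26 (SE, limma adjusted p = 0.04) between the lines, and both calls were lost without either the 2 highest or the 2 lowest Panc89 libraries. The test between the lines called MT-ND6 with the higher and MT-ND2 and MT-ND3 with the lower change in Panc89, beside 14.8% and 20.4% of all genes.

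The remaining mitochondrial genes were not called for any clone difference. The complex IV genes MT-CO1, MT-CO2 and MT-CO3 differed between Holoclone and Paraclone by -0.27, -0.40 and -0.36 in Panc1 and by -0.11, -0.33 and -0.17 in Panc89. The ATP synthase genes MT-ATP6 and MT-ATP8 differed by -0.24 and -0.45 in Panc1 and by -0.34 and -0.40 in Panc89, and the cytochrome b gene MT-CYB by 0.24 and -0.36. The complex I genes MT-ND4L and MT-ND5 differed by -0.19 and -0.51 in Panc1 and by -0.14 and -0.20 in Panc89. The nuclear fragment MTATP6P1 averaged 501 TPM, 11.5% of MT-ATP6, and was the only copy of a mitochondrial gene above 10%.

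Some of these genes share bases, which bears on how reads are divided between them, and the places where they meet are shown for that reason. The sequences are read from RefSeq's GRCh38 mitochondrial genome. In the first 2 the capitals mark the bases that belong to both genes: MT-ATP8 and MT-ATP6 share chrM:8527-8572, 46 bases, and MT-ND4L and MT-ND4 share chrM:10760-10766, 7 bases. In the third, at chrM:14129-14168, the lower case is the end of MT-ND5 and the capitals are the end of MT-ND6, which is read from the other strand.
MT-ATP8 and MT-ATP6: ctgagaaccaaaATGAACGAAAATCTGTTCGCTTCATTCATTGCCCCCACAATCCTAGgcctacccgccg
MT-ND4L and MT-ND4: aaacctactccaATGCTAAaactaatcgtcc
MT-ND5 and MT-ND6: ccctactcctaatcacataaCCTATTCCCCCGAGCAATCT

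Within each overlapping pair the 2 genes are carried by 1 mRNA, yet their TPM ratio differed between the lines. The ratio of MT-ATP6 to MT-ATP8 was 0.552 to 0.696, median 0.623, over the 9 Panc1 libraries and 0.490 to 0.532, median 0.504, over the 9 Panc89 libraries. The ratio of MT-ND4 to MT-ND4L was 0.677 to 0.767, median 0.722, in Panc1 and 0.562 to 0.602, median 0.578, in Panc89. Neither ratio overlapped between the lines, and both were looked at after the values had been seen. For genes that end at each other on opposite strands, the ratio of MT-ND6 to MT-ND5 was 0.0453 to 0.156 in Panc1 and 0.0552 to 0.161 in Panc89, overlapping widely. The ratio of MT-ND2 to MT-ND1, which lie next to each other, was 0.903 to 1.24 in Panc1 and 1.10 to 2.54 in Panc89. The kit marks the strand, but whether the counting used it is not given in the sources used here, so reads of MT-ND6 and of the opposite strand may have been counted together.

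Genes that build or regulate the complexes were examined as lists over all libraries, beside the shares of all tested genes given above and medians over all genes of -0.18 in the parental pair, 0.19 in the Panc1 clones and 0.09 in the Panc89 clones. The median differences in these 3 comparisons were -0.18, 0.24 and 0.17 for assembly factors, -0.13, 0.44 and 0.08 for mitochondrial gene expression, -0.02, 0.26 and 0.16 for the mitochondrial ribosome, -0.39, 0.02 and -0.16 for the citric acid cycle, 0.26, 0.32 and 0.06 for membranes and chaperones, 0.003, 0.48 and 0.40 for regulators and -0.37, 0.30 and 0.03 for paralogs. Among 51 assembly factors, 9 were higher and 16 lower in Panc89 in the parental pair, with SCO2 (1.87), which delivers copper to complex IV, and UQCC3 (1.12) highest and LYRM7 (-1.56), a factor for the Rieske protein, and COX20 (-1.36) lowest. In Panc1 Holoclone against Paraclone cells 17 were higher and 5 lower, which became 7 and 10 under upper quartile and 6 and 12 under median-of-ratios scaling. COX20 (1.28) and UQCC3 (0.79) were the highest there and NDUFAF3 (-0.64) and UQCC1 (-0.61) the lowest. In Panc89 10 were higher and 3 lower, with NDUFAF8 (0.92) and UQCC2 (0.82) highest and PET117 (-0.86) and SCO2 (-0.64) lowest, and the split became 7 and 6, and 7 and 8, under the other scalings, 17 and 5 without the 2 highest and 5 and 3 without the 2 lowest Panc89 libraries.

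Of 31 genes for mitochondrial transcription, RNA processing and DNA copying, 10 were higher and 10 lower in the parental pair, with TEFM (1.09) and GRSF1 (0.86) highest and HSD17B10 (-1.74) and the DNA polymerase POLG (-1.46) lowest. In Panc1 Holoclone cells 15 were higher and 1 lower, and 9 and 2 under either other scaling. FASTKD1 (1.43) and TFAM (1.23), which packs and transcribes mitochondrial DNA, rose most. FASTKD3 (-0.55) was the gene that fell, and MTERF3 (0.40) had the smallest called increase. In Panc89 5 were higher and 3 lower, among them FASTKD3 (0.63) and MTERF3 (0.50) higher and POLG (-0.87) and PRORP (-0.78) lower, which became 9 and 3 without the 2 highest and 1 and 0 without the 2 lowest Panc89 libraries, all 4 calls being lost in the latter. Of 78 mitochondrial ribosomal proteins, 20 were higher and 26 lower in the parental pair, which became 33 and 19, and 33 and 15, under the other scalings. Their differences ran from MRPS12 (-2.39) and MRPS16 (-1.16) to MRPS2 (1.58) and MRPL45 (1.95). In the clones 29 were higher and 7 lower in Panc1 and 21 and 2 in Panc89, and with median-of-ratios scaling 13 and 12, and 14 and 12. The Panc89 split was 25 and 3 without the 2 highest and 7 and 1 without the 2 lowest Panc89 libraries. The clone extremes were MRPS22 (0.88), MRPL27 (0.86), MRPS30 (-0.75) and MRPL23 (-0.93) in Panc1 and MRPL1 (0.84), MRPL17 (0.83), MRPS24 (-0.35) and MRPL33 (-0.67) in Panc89.

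Of 14 citric acid cycle genes, 4 were higher and 7 lower in the parental pair, with SUCLG2 (1.75) and SUCLA2 (1.11) highest and IDH2 (-2.33) and OGDH (-1.19) lowest. In the clones 3 were higher and 4 lower in Panc1, among them SUCLG2 (-0.98) lower and IDH3A (0.39) and DLST (0.63) higher, and 0 and 2 in Panc89, DLST (-0.42) and IDH3B (-0.29). Under median-of-ratios scaling the splits were 1 and 6 in Panc1 and 0 and 6 in Panc89, where the split was 3 and 5 without the 2 highest and 0 and 1 without the 2 lowest libraries. Of 12 genes for mitochondrial membranes and chaperones, 3 were higher and 5 lower in the parental pair, 3 and 2 in the Panc1 clones and 2 and 1 in the Panc89 clones, and under median-of-ratios scaling 6 and 3, 2 and 3, and 2 and 1. The Panc89 split was 3 and 1 without the 2 highest and 1 and 0 without the 2 lowest libraries.

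Of the regulators of mitochondrial gene programs, 9 of 10 were tested. The coactivator gene PPARGC1A stood at 8.42, 5.01 and 9.55 TPM in Panc89 parental libraries, while no Panc1 library exceeded 0.27 TPM. In the Panc89 clones it stood at 0.39, 0.81 and 1.72 TPM in Holoclone and 0.75, 1.21 and 1.18 TPM in Paraclone libraries, close to the filter of 1 TPM. It passed that filter only through Panc89 libraries, where it was higher, so the line test is not independent of the filter. Its line difference was 3.05 ± 0.22 (SE, limma adjusted p = 8.0e-09) in the parental pair and 0.79 and 0.77 in the clone pairs. ESRRA, a nuclear receptor that works with it, was higher in Panc89 by 1.24 ± 0.14, 1.84 ± 0.14 and 1.42 ± 0.14 (SE) in the parental, Holoclone and Paraclone pairs (limma adjusted p = 1.1e-06, 1.1e-08 and 2.7e-07). NRF1, a factor named for the respiratory genes it binds, differed by 0.00, -0.01 and -0.11 in the line pairs and passed in none, and it was higher in Panc89 Holoclone than Paraclone cells by 0.52 ± 0.17 (SE, limma adjusted p = 0.023), a call lost without the 2 lowest Panc89 libraries (0.36). GABPB1, a subunit of the ETS-type factor GABP, was higher in Holoclone cells of both lines, by 0.89 ± 0.19 (SE, limma adjusted p = 0.0019) and 1.00 ± 0.19 (SE, limma adjusted p = 8.3e-04). CREB1 and YY1 were higher in Panc1 Holoclone cells, by 1.17 and 0.94. In the clone comparisons 4 regulators were higher and none lower in each line, which became 3 in Panc1 and 1 in Panc89 under median-of-ratios scaling, and 3 and 2 in Panc89 without the 2 highest and without the 2 lowest libraries.

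Paralogs of the subunits and small proteins of the complexes outside the symbol rule were tested for 12 of 14 genes. In the parental pair 4 were higher and 6 lower, in the Panc1 clones 4 and 0, and in the Panc89 clones 3 and 5, and under median-of-ratios scaling 4 and 4, 2 and 2, and 3 and 5. The Panc89 split was 5 and 4 without the 2 highest and 3 and 3 without the 2 lowest libraries. COX7B2, a paralog of COX7B, stood at 13.3, 15.9 and 15.0 TPM in Panc89 parental, 35.5, 21.4 and 22.5 TPM in Holoclone and 0.817, 1.39 and 1.44 TPM in Paraclone libraries, with at most 0.16 TPM in Panc1. The Panc89 Paraclone libraries lay far below the others, with a Holoclone against Paraclone difference of 3.61 ± 0.17 (SE, limma adjusted p = 5.2e-10). COX6B2, a paralog of COX6B1, ran the other way, at 12.0, 9.68 and 13.9 TPM in Panc89 Holoclone and 125, 32.8 and 63.0 TPM in Paraclone libraries, a difference of -2.35 ± 0.42 (SE, limma adjusted p = 4.9e-04), and was higher in Panc89 than Panc1 Paraclone cells by 4.75 ± 0.42 (SE, limma adjusted p = 8.9e-08). The calls of both genes held without either pair of Panc89 libraries, as did that of the paralog NDUFA4L2, which was higher in Panc89 Holoclone cells by 2.16 ± 0.39 (SE, limma adjusted p = 4.3e-04). UQCRHL, an intronless copy of UQCRH, was lower in the parental pair, at -1.63 ± 0.12 (SE, limma adjusted p = 6.4e-09). ATP5MK and HIGD1A, small proteins tied to ATP synthase and to the respiratory chain, were higher in Panc1 Holoclone cells (0.79 and 0.70) and lower in Panc89 Holoclone cells (-0.58 and -0.55, the latter call lost without the 2 lowest Panc89 libraries), with differences between the lines of -1.37 ± 0.16 (SE, limma adjusted p = 7.9e-06) and -1.25 ± 0.24 (SE, limma adjusted p = 8.2e-04). The cytochrome c gene CYCS was higher in Panc1 Holoclone cells by 0.87 ± 0.19 (SE, limma adjusted p = 0.0021), and ATP5IF1, the inhibitor of ATP synthase, was higher in Panc89 by 0.61, 1.05 and 0.55 in the 3 line pairs.

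The promoters of the nuclear genes were searched for short motifs of factors known to act on respiratory genes. RefSeq's table for GRCh38.p14 held the 250 bases before and 50 bases after the start of 61 of the 77 nuclear genes. Both strands were searched. A gene can have several promoter entries, and it was counted once per motif if any of them held it. The number of entries per gene was not compared between the members and other genes. The YY1 core ends and the NRF1 core begins with GCG, so that these can overlap. The NRF1 core GCGCATGC was found in 14 of 61 genes (23.0%), beside 6.18% of 11821 tested genes with a promoter entry and 3.68% of all 27305 genes with one. The ETS core CCGGAAGT was found in 11 (18.03%), beside 9.27% and 4.95%, the YY1 core AAGATGGCG in 9 (14.8%), beside 4.33% and 2.14%, and the ERR site TCAAGGTCA in 1 (1.64%), beside 0.330% and 0.432%. In all, 27 of the 61 held at least 1 of the motifs. A match is a description of the letters and not of binding.

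Windows of 30 bases around a motif are printed as examples for genes on both sides of the line difference and for a gene that turned with the clones. The genes were picked by these differences. The capitals mark the motif, and every window is on the strand of its gene, with NDUFS7 holding the NRF1 core on the opposite strand. The YY1 core lies in NDUFA9 (chr12:4649114-4649143), higher in Panc89, and in NDUFB8 (chr10:100529835-100529864, minus strand), lower in Panc89. The NRF1 core lies in COX6A1 (chr12:120437928-120437957) and NDUFS7 (chr19:1383823-1383852), higher in Panc89, in SDHD (chr11:112086752-112086781), lower in Panc89 and higher in Holoclone cells, and in NDUFS6 (chr5:1801350-1801379), of opposite clone change in the lines.
NDUFA9, YY1 core: attgtgggaaAAGATGGCGgctgccgcaca
NDUFB8, YY1 core: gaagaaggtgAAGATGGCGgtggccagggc
COX6A1, NRF1 core: ggaggtgcagaGCGCATGCtctctcttgcc
NDUFS7, NRF1 core: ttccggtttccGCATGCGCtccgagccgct
SDHD, NRF1 core: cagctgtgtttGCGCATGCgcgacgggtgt
NDUFS6, NRF1 core: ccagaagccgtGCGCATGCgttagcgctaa
The YY1 core was present in NDUFA7, NDUFA9, NDUFS7 and UQCRC1, all higher in Panc89 in all 3 pairs, and in NDUFA6 and NDUFB8, both lower. The other genes with it, NDUFS4, SDHB and ATP5PF, were not called one way in all 3 pairs. Whether the motifs bear on the line difference was not tested.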

How the data were processed

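RNA of 2 cell lines in 3 variants each was sequenced with a stranded mRNA kit, 3 libraries per group. The authors quantified transcripts with kallisto 0.46.1 against the human GRCh38 transcriptome of Ensembl and summed them to genes with tximport. The authors deposited log2 values of scaled TPM plus 1 for 40266 gene symbols and 18 libraries, and these were used as deposited, so that every fold change refers to log2(TPM + 1), which understates changes of low genes. Their own tests with DESeq2 were not used.

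Genes at 1 TPM or more in at least 3 libraries (16093) were fitted together over all 18 libraries with limma 3.58.1 in R 4.3.3 (trended variance, a mean per group). All tests were two-sided, p-values were adjusted by Benjamini-Hochberg over all tested genes, and calls were made at 0.05. The fit was tested on simulated data for Panc1 Holoclone against Paraclone cells. It called 6 of 69 genes changed by 0.5 on the log2 scale, 33 of 64 changed by 1 and 58 of 67 changed by 2. None was called in the wrong direction. Only these genes were changed among the 16093 simulated, whereas 6006 genes were called in this comparison of the data. The adjustment for multiple tests was therefore stricter in the simulation, and its shares of called genes do not carry over to the data. A gene that was not called may still differ. Alternatives were a pseudocount of 0.1, no filter or a filter of 5 TPM, the compared groups alone, replicate blocks, upper quartile and median-of-ratios scaling, removal of the mitochondrial genes, a threshold of 0.01 and leaving out each library; leaving out the 2 highest and the 2 lowest Panc89 clone libraries was added after seeing the data.

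The members and lists were chosen with earlier results of these data known. Named are every mitochondrial member, the 3 highest and 3 lowest called nuclear members of each comparison, core and isoform genes, untested members, the 2 highest and 2 lowest called genes of each other list in the clone and parental comparisons, regulators and paralogs, and copies above 10% of a member; values of 2 of these genes are not reported here. Positions are from GENCODE on GRCh38, and sequences from RefSeq.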

Additional observations from a re-analysis of the deposited data

Results flagged for a closer look

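The test of whether the Holoclone against Paraclone change differs between Panc89 and Panc1 picked out 19 nuclear and 3 mitochondrial genes. The listed values are differences of log2 changes, Panc89 less Panc1, from limma. Among the mitochondrial genes MT-ND6 differed by 1.91, MT-ND2 by -1.63 and MT-ND3 by -0.74. Among the nuclear genes NDUFS6 differed by 1.34, UQCR10 by 0.83 and UQCRB by 0.74, with the higher change in Panc89. NDUFB6 differed by -1.09, COX6B1 by -0.82 and ATP5F1C by -0.80, with the lower change in Panc89. Of these 9 genes, MT-ND2, MT-ND6, NDUFS6, UQCRB, COX6B1 and ATP5F1C passed under both other scalings and without each library in turn, and MT-ND3, UQCR10 and NDUFB6 did not.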

How the results depend on the processing

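Read depth is unknown, so that no counting error can be given for any value, and 3 libraries of 1 clone per group limit each comparison to those clones. Over all alternatives, no named gene changed the sign of a called difference; 1766 gene values stayed on their side of the threshold, 25 gained a call and 107 lost it. Of the counts of called members, 179 stayed within 1.5 times and 35 did not. Of the medians, 186 moved by less than the spread between replicates and 16 moved by more.

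For the nuclear genes, the 22 calls of the Panc1 clones became 10 at an adjusted p under 0.01 and 11 to 21 with a library left out. The 24 calls of the Panc89 clones became 6 with the compared groups alone, 13 without the 2 lowest Panc89 libraries, 11 at 0.01 and 15 to 30 with a library left out. The 19 calls of the difference between the lines became 11 with the groups alone, 7 at 0.01 and 13 to 25 with a library left out. In the line pairs, leaving out a library gave 40 to 45 calls in the parental, 41 to 50 in the Holoclone and 33 to 50 in the Paraclone pair.

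For the mitochondrial genes, the 4 calls of the parental pair became 1 without a filter, with upper quartile scaling and at 0.01, 0 with median-of-ratios scaling (limma, with 0 at an unadjusted p under 0.05) and 1 to 3 with a library left out. The 3 calls of the Holoclone pair became 1 with the groups alone and 2 to 6 with a library left out, and the 4 of the Paraclone pair 3 to 4. The 2 calls of the Panc89 clones became 1 without a filter, at 0.01 and without the 2 highest Panc89 libraries, 0 with the groups alone and without the 2 lowest Panc89 libraries (limma, each with 1 at an unadjusted p under 0.05) and 1 to 4 with a library left out. Leaving out a library gave 2 to 4 calls in the Panc1 clones and 2 to 5 for the difference between the lines. The cause of these changes was not tested.

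Replicate numbers recur in all groups. Over 18 pairs of same-numbered libraries of 1 line, the correlation of their deviations from the group means was -0.318 to 0.190. The mean was -0.0418, and 3 pairs were over 0.1. With so few libraries per group, these values cannot show whether same-numbered libraries shared a passage or handling. The labels give only the number. Correlations were not computed for pairs across the lines. With a replicate block within line, the nuclear calls were 17 in the Panc1 and 18 in the Panc89 clones and 12 for the difference between the lines. The mitochondrial calls were 1 in the Panc89 clones. In that fit the line pairs refer to replicate 1 of each line and not to group means, so their counts are not given. With a block over both lines, 16 nuclear genes were higher and 29 lower in the parental, 18 and 27 in the Holoclone and 15 and 22 in the Paraclone pair. For the mitochondrial genes these counts were 0 and 4, 1 and 3, and 1 and 3.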

Other observations

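A mitochondrial gene outside the set was named after its values were seen. MT-TM, the tRNA for methionine at chrM:4402-4469, lies directly before MT-ND2. In Panc1 it was listed at 0 to 15.8 TPM over the 9 libraries. In Panc89 it stood at 507, 322 and 285 TPM in the parental, 190.1, 526 and 459 TPM in the Holoclone and 1014, 769.7 and 1748 TPM in the Paraclone libraries. Every Panc89 library exceeded every Panc1 library. The line differences were 6.12 ± 0.74 in the parental, 6.29 in the Holoclone and 8.26 in the Paraclone pair (SE, limma adjusted p = 2.6e-06, 1.9e-06 and 9.6e-08). Holoclone and Paraclone cells of Panc89 differed by -1.63 (limma adjusted p = 0.10). A tRNA is short and carries no coding sequence, and how its reads were divided from those of the long precursor is not given in the sources used here.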
